A study of Homo sapiens with 9 samples.

Results

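The extracellular metalloproteinases, their inhibitors and the plasminogen activators were followed by RNA-seq in A549, an established line from a human lung adenocarcinoma. Members were the rows of the raw count table whose symbol is MMP, ADAM, ADAMTS, ADAMTSL or TIMP followed by a number only, together with PLAU, PLAUR and PLAT. They numbered 75 of the 26364 gene names. The rule used symbols and no measured value, but it was set with earlier results of these data known. The MMPs made up 22 members, the ADAMs 22, the ADAMTS proteases 19, the ADAMTS-like proteins 5, the TIMPs 4, and the plasminogen activators and their receptor 3. An expression filter was passed by 38 members in at least 1 comparison and by the other 37 in none, and 11 had no count in any library.

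The 9 libraries were poly(A) RNA-seq of A549 cells in 4 groups. Control cells (2 libraries) carried the genotype WT. LA cells (2 libraries) carried the LOC388942-ALK (LA) fusion, which joins an intergenic stretch beside LOC388942 to the ALK receptor tyrosine kinase gene, and their genotype was sgLOC388942 with sgALK. The other groups were LA cells with the same 2 guides and, in addition, a guide against FOS (sgFOS, 2 libraries) or a scramble guide (sgScr, 3 libraries). The study's methods describe the parent cells as A549 cells expressing Cas9, infected with lentivirus for both guides, and the fusion cells as monoclonal strains grown from single cells, so the fusion and the clone cannot be told apart in LA against control. The labels give neither the FOS guide used nor any batch, and nothing states that replicates were separate cultures, so the p-values measure only the spread between these libraries.

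MMPs are zinc proteases that are made as inactive proenzymes and cut collagens, gelatin, laminins and proteoglycans once the prodomain is removed. ADAMs sit in the cell membrane and release the outer parts of other membrane proteins, among them growth factors, cadherins and Notch receptors, while ADAMTS proteases are secreted and process matrix proteins such as versican, procollagens and von Willebrand factor. TIMPs bind the active site of these enzymes. Urokinase (PLAU), held at the cell surface by its receptor (PLAUR), and the tissue activator (PLAT) turn plasminogen into plasmin, which can activate several proMMPs. FOS pairs with JUN proteins in the transcription factor AP-1, and AP-1 sites close to the start are a well-known feature of several MMP promoters.

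For that reason the 250 bases before the start were read for the members present in a RefSeq promoter table (GRCh38.p14), which held 45 of the 75. Promoters of the other members, among them MMP1, MMP2, MMP3, MMP9, MMP13, TIMP2 and PLAT, were not read. The AP-1 motif searched was TGANTCA, which reads the same on both strands, as does the related CRE motif TGACGTCA that was also searched and that does not contain it. The AP-1 motif was present in 5 of these 45 members (11.1%) and in 6.57% of all 35116 promoters of the table, and the CRE motif in 0 of 45 against 1.65% of all promoters. The sequences shown are the promoters of the 3 tested members with the motif, MMP7, PLAUR and ADAMTS12, and that of MMP10, in which the motif stood at the same place as in MMP7. All 4 lie on the minus strand and run 5′ to 3′ toward the start, with the AP-1 motif in capitals. The first base of the motif lay at −67 in MMP7 and in MMP10, at −186 in PLAUR and at −84 in ADAMTS12, counted from the start. The remaining match, at −112, was in MMP20, which reached at most 1 count.
MMP7 (matrilysin, chr11:102530748-102530997): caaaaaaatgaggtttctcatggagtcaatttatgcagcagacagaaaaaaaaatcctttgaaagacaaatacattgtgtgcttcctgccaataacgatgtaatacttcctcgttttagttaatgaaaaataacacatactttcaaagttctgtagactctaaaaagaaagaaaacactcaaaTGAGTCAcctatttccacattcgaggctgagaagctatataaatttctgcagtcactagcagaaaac
MMP10 (stromelysin-2, chr11:102780629-102780878): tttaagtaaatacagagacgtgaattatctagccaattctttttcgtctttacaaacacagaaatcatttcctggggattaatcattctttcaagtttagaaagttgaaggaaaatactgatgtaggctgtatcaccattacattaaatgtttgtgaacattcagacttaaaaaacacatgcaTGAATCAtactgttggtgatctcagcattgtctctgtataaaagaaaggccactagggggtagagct
PLAUR (urokinase receptor, chr19:43670170-43670419): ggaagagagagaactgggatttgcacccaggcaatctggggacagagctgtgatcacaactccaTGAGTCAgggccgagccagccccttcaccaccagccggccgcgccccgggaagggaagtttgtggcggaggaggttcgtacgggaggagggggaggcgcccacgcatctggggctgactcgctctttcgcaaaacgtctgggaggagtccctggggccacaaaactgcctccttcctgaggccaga
ADAMTS12 (secreted protease, chr5:33891991-33892240): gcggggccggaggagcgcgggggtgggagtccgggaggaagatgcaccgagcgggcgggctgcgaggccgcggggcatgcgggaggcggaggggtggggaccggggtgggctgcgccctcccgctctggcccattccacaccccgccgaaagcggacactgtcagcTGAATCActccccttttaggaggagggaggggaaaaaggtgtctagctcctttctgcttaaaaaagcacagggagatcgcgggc

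Total counts per library ranged from 14507228 to 20456341. The 3 sgScr and the 2 sgFOS libraries resembled their own replicates closely. The chi-square of their counts over all genes, divided by its degrees of freedom, was 1.74 to 2.65 between replicates of these groups, 58.1 between the LA libraries and 125 between the control libraries. FOS, the edited gene, had 1008 and 1113 counts in sgFOS and between 3528 and 4198 counts in sgScr, a log2 fold change of −1.48 (SE 0.0440, adjusted p = 2.0e-25), and 167 and 155 counts in control against 5448 and 1660 in LA. ALK, the fused gene, was barely counted, at 0 in both controls, 2 and 15 counts in LA, 4, 1 and 3 in sgScr, and 2 and 0 in sgFOS. Epithelial and A549-typical genes were abundant, with KRT8 at 51670 counts or more and ALDH1A1 at 84916 counts or more in every library. The 7 epithelial markers summed to 13583 to 24021 CPM (counts scaled to a common library size) in control, 7904 to 12882 in LA, 7036 to 7484 in sgScr and 8307 to 8543 in sgFOS, and the 5 enzymes to 22069 to 22778, 15234 to 17656, 16081 to 16682 and 16444 to 16924 CPM in the same order. Of the 4 endothelial markers 3 never passed 3 counts, as did 3 of the 6 fibroblast markers and 1 of the 4 leukocyte markers, PTPRC, at 0 throughout. The summed level of the fibroblast markers, nearly all COL1A1, was 7.78 to 18.0 CPM in control, 16.2 to 17.3 in LA, 7.25 to 8.12 in sgScr and 9.68 to 10.5 in sgFOS. The leukocyte markers, nearly all CD68 and CD14, summed to 53.9 to 74.7 CPM in control, 39.0 to 39.1 in LA, 38.0 to 39.5 in sgScr and 53.7 to 56.6 in sgFOS. The endothelial sum was 1.05 CPM at most. The part of these genes in the results was not tested.

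These cells expressed a narrow part of the families, led by inhibitors, sheddases, the urokinase system and, outside LA, MMP7 (plot of levels per kilobase). On the scale of CPM per kilobase of transcript, which allows levels of different genes to be compared, TIMP1 led in control at 322 ± 212 (SD, n = 2), a mean of 2 libraries that stood far apart. MMP7 followed in control at 63.9 ± 6.19 (SD, n = 2). In LA cells the order was led by ADAM9 at 115 ± 8.95, TIMP2 at 100.6 ± 20.8 and TIMP1 at 92.9 ± 0.158 (SD, n = 2 each), levels that lay within 1 SD of the TIMP2 mean, and MMP7 stood at rank 12 with 13.7 ± 0.404. ADAM9, a membrane sheddase, was also first in sgScr at 136 ± 0.886 (SD, n = 3) and in sgFOS at 138 ± 3.08 (SD, n = 2), ahead of TIMP1 and TIMP2 in both. MMP7 had rank 4 in both groups, at 38.0 ± 2.5 in sgScr and 70.0 ± 0.601 in sgFOS. Urokinase had rank 5 in both groups, at 38.0 ± 1.07 in sgScr and 51.0 ± 0.809 in sgFOS, against rank 8 in control and 9 in LA.

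**Figure D1:**
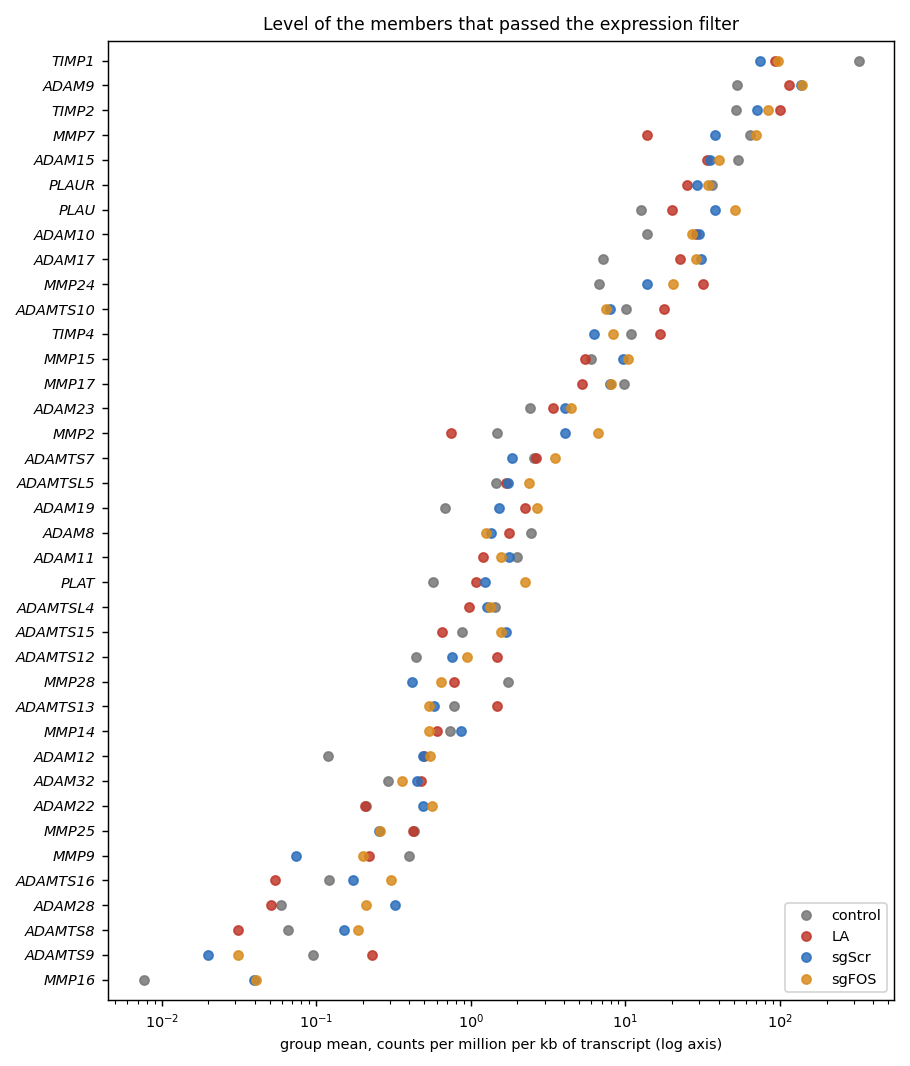
Group mean level of each of the 38 members that passed the expression filter in at least 1 comparison, in CPM per kilobase of transcript on a log axis, with 1 point for each of the 4 groups. MMP16 had no count in LA and has no point there. TIMP1, ADAM9 and TIMP2 stand at the top, and the control point of TIMP1 and the LA point of MMP7 stand away from the other groups of the same gene.

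Many of the best-known members were hardly counted. Among the collagenases, which cut fibrillar collagen, MMP1 reached 2 counts in its highest library, MMP13 reached 3 and MMP8 had none. Of the stromelysins MMP3 reached 3 counts, MMP10 reached 8 and MMP11 reached 14. The gelatinase MMP9 had 1 to 21 counts and was tested in LA against control alone. TIMP3, the TIMP that blocks ADAM17, reached 6 counts, and the procollagen N-proteinases ADAMTS2, ADAMTS3 and ADAMTS14 reached 3, 7 and 6 counts. A few rare members were at 0 in every library of 1 group. Against a floor of 3 counts per library, ADAMTS6, at 7 and 10 counts in LA and 0 in both controls, was at least 2.69-fold higher in LA than in control, and MMP16, at 8, 14 and 5 counts in sgScr and 0 in both LA libraries, was at least 2.59-fold higher in sgScr than in LA. These bounds cover counting error only.

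The comparison of LA with control asked which members differ between cells with the fusion and cells without it. Matrilysin (MMP7) and the inhibitor TIMP1 were lower in LA cells, and the membrane protease MMP24, the sheddases ADAM17, ADAM19 and ADAM12, and the secreted protease ADAMTS12 were higher. The quasi-likelihood test of edgeR, with calls made where the adjusted p was under 0.05, put 5 of the 35 members tested higher, or 14.3%, beside 9.57% of all 14425 genes tested. The 2 called lower were 5.71% of the members, beside 9.94% of all genes. The median log2 fold change was 0.01 over the members and 0.04 over all genes. In cultured cells as in any bulk RNA, fewer cells that express a gene and less RNA of it per cell cannot be told apart.

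MMP7, on GRCh37 at chr11:102391239-102401481, is among the smallest MMPs, secreted by epithelial cells and able to cut many matrix and membrane proteins. Its level was 66.6 and 76.3 CPM in the control libraries and 15.6 and 15.0 CPM in the LA libraries. Both LA libraries lay far under both control libraries, a log2 fold change of −2.26 (SE 0.419, adjusted p = 0.00142). Once the trends with transcript length and base composition (GC) were removed, the difference was −1.62 (adjusted p = 0.00712). MMP7 was not called without LA replicate 1 (−2.31, adjusted p = 0.0727) or without LA replicate 2 (−2.21, adjusted p = 0.110). The gelatinase MMP2, which cuts basement membrane collagen, was at 4.84 and 5.60 CPM in control and 2.03 and 3.20 CPM in LA and was not called (−1.03, SE 0.587, adjusted p = 0.218).

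MMP24 (MT5-MMP, chr20:33814493-33864801), a transmembrane MMP that can cut N-cadherin, had 20.1 and 38.9 CPM in control and 83.5 and 193 CPM in LA. The groups did not overlap, although replicates of each group differed widely, and the log2 fold change was 2.19 (SE 0.464, adjusted p = 0.00296). Without LA replicate 2 it was 1.48 and not called (adjusted p = 0.243). The gene is overlapped on the other strand by an antisense RNA, listed in the table as MMP24-AS1, and whether the counting used strand is not given in the sources used here. That RNA had 91.7 and 35.0 CPM in control and 21.6 and 43.0 CPM in LA, a log2 fold change of −1.01 (adjusted p = 0.127). The other membrane-type members MMP14, MMP15, MMP17 and MMP25 were not called, with log2 fold changes from −0.93 for MMP17 to −0.05 for MMP25.

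Of the 8 ADAMs with an active zinc site that were tested, 3 were higher and none was lower, beside 9.57% and 9.94% of all genes. ADAM17 (chr2:9628615-9696861), the enzyme that releases TNF and several EGFR ligands, stood at 16.7 and 46.0 CPM in control and 111 and 87.4 CPM in LA. The LA libraries were both above the controls, and ADAM17 rose by 1.63 on the log2 scale (SE 0.454, adjusted p = 0.0150). ADAM19 (chr5:156822542-157002783), which can release neuregulins, was even in control at 4.40 and 4.36 CPM and higher in LA at 17.6 and 11.4 CPM, with a log2 fold change of 1.68 (SE 0.499, adjusted p = 0.0206). ADAM12, of the same meltrin type, was rare at 0.817 and 1.06 CPM in control and 4.87 and 2.98 CPM in LA (2.02, SE 0.691, adjusted p = 0.0422). After the correction ADAM17 was still called at 1.22 (adjusted p = 0.0324), whereas ADAM19 at 1.08 (adjusted p = 0.101) and ADAM12 at 1.19 (adjusted p = 0.185) were not. Without control replicate 1 ADAM17 was 1.04 (adjusted p = 0.0879) and ADAM19 1.66 (adjusted p = 0.0574), neither was called without either LA replicate, and ADAM12 was called in none of the 4 omissions. The most counted members of this role were not called. ADAM9 had 107 and 324 CPM in control and 447 and 499 CPM in LA (1.10, SE 0.467, adjusted p = 0.0978), and ADAM10, which cuts Notch and E-cadherin, had 118 and 191 CPM in control and 310.4 and 324 CPM in LA (1.00, SE 0.413, adjusted p = 0.0876). ADAM15 went the other way in value, from 180.4 and 134 CPM in control to 113 and 85.8 CPM in LA (−0.70, SE 0.400, adjusted p = 0.221). After the correction ADAM9 gave 0.78 (adjusted p = 0.138), ADAM10 −0.07 (adjusted p = 0.881) and ADAM15 −0.37 (adjusted p = 0.436). Among the ADAMs without the zinc site, which act by binding, none of 4 was called, and ADAM23, the most counted, gave 0.45 (SE 0.437, adjusted p = 0.497). With the correction ADAM23 gave −0.30 (adjusted p = 0.537).

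ADAMTS12, which can cut cartilage oligomeric matrix protein, was the 1 called member of the 8 ADAMTS and ADAMTS-like proteins tested, beside 9.57% of all genes higher and 9.94% lower. It had 4.46 and 3.12 CPM in control and 11.8 and 13.5 CPM in LA, a log2 fold change of 1.70 (SE 0.509, adjusted p = 0.0219). It was not called after the correction (0.83, adjusted p = 0.183), without control replicate 2 (1.38, adjusted p = 0.0502) or without either LA replicate. ADAMTS10, a protease of fibrillin microfibrils and the most counted of the family, had 43.6 and 42.3 CPM in control and 59.8 and 90.4 CPM in LA and was not called (0.77, SE 0.401, adjusted p = 0.179). ADAMTS15, the most counted proteoglycanase, gave −0.47 (SE 0.555, adjusted p = 0.583), and ADAMTSL4, a fibrillin-binding protein without protease activity, gave −0.60 (SE 0.559, adjusted p = 0.478).

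TIMP1 (chrX:47441807-47446188), a secreted inhibitor of most MMPs and of ADAM10, was at 363 and 132 CPM in control and 71.3 and 71.5 CPM in LA. The LA libraries were alike and under both controls, which differed from each other more than control replicate 2 did from LA, and the log2 fold change was −1.83 (SE 0.456, adjusted p = 0.00758). Without control replicate 1 it was −0.96 (adjusted p = 0.0841). Without LA replicate 1 or 2 the value stayed at −1.85 and −1.82 and was not called (adjusted p = 0.179 and 0.227). The length and GC correction left −0.63 (adjusted p = 0.158), which was not called. TIMP2 (chr17:76849059-76921469), which both inhibits MMP2 and helps its activation, had 215 and 164 CPM in control and 314 and 421 CPM in LA and was not called (0.92, SE 0.410, adjusted p = 0.114). TIMP4 had 12.8 and 13.2 CPM in control and 19.9 and 20.0 CPM in LA (0.58, SE 0.434, adjusted p = 0.359), and with the correction 1.32 (adjusted p = 0.0268). None of the plasminogen group was called. PLAU gave 0.64 (SE 0.425, adjusted p = 0.297), PLAUR −0.57 (SE 0.416, adjusted p = 0.346) and PLAT 0.88 (SE 0.652, adjusted p = 0.356). With the correction PLAU gave 0.83 (adjusted p = 0.0867), PLAUR 0.20 (adjusted p = 0.667) and PLAT 0.82 (adjusted p = 0.319).

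**Figure D2:**
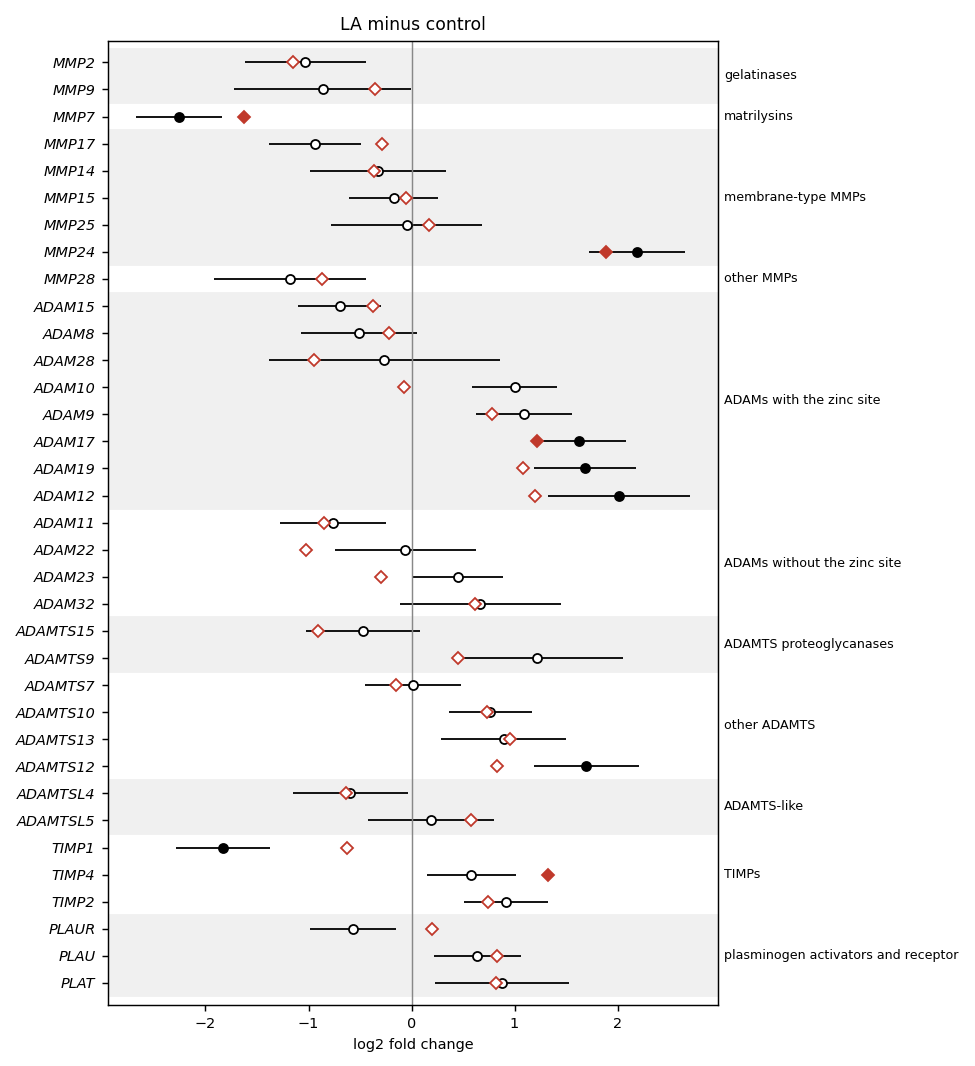
Log2 fold change of LA minus control for the 35 members tested, grouped by role. Black circles show the edgeR estimate with its standard error and red diamonds the estimate after the length and GC correction, and filled symbols mark an adjusted p under 0.05. MMP7, MMP24 and ADAM17 are filled on both scales, whereas TIMP1, ADAM19, ADAMTS12 and ADAM12 are filled on the first alone and TIMP4 on the second alone.

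Across genes, the fold change rose with transcript length (Spearman's rho 0.574 over 14158 genes, and 0.0965 after the correction) and declined with GC content (−0.307, and −0.0281 after the correction), and the tested members had a median transcript of 4062 bases against 3175 over all genes. The correction left 3 members higher and 1 lower. Leaving out a library left 2 higher and 1 lower without control replicate 1, 5 and 4 without control replicate 2, 1 and 0 without LA replicate 1, and 0 and 0 without LA replicate 2 by edgeR, where 5 and 3 members had an unadjusted p under 0.05. In these fits the lone library of a group is assumed to vary like the other group, and the calls over all genes ranged from 185 to 2383 higher and from 68 to 2695 lower. At the threshold of the study's methods, a log2 fold change over 0.5 with an unadjusted p under 0.05, 8 members were higher beside 17.4% of all genes, and 3 were lower beside 17.1%.

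The comparison of sgFOS with sgScr asked what differs between fusion cells with a guide against FOS and fusion cells with a scramble guide. The labels do not say whether these cells also differ in clone, passage or batch, so such differences cannot be told apart from the guide. Members of most roles tested were higher in sgFOS cells: matrilysin, gelatinase A, MMP24, ADAM19, ADAMTS7, all 3 tested TIMPs and all 3 of the plasminogen group. The changes were moderate, from 0.21 to 0.94 on the log2 scale among the members called higher, and 2 widely expressed sheddases, ADAM10 and ADAM17, were slightly lower. Of 36 members tested, 13 were called higher, which is 36.1% beside 12.2% of all 14196 genes, and 2 were called lower, or 5.56% beside 10.5% of all genes. The median log2 fold change was 0.17 over the members, with 26 above and 10 under 0, and −0.0015 over all genes.

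MMP7, whose promoter holds the AP-1 motif shown above, had 45.3, 39.7 and 42.6 CPM in sgScr and 78.8 and 77.9 CPM in sgFOS. Every sgFOS library was above every sgScr library, and the log2 fold change was 0.89 (SE 0.0553, adjusted p = 1.76e-15). MMP2 (chr16:55423612-55540603) had 13.7, 13.8 and 15.3 CPM in sgScr and 24.6 and 22.3 CPM in sgFOS, a log2 fold change of 0.73 (SE 0.0930, adjusted p = 1.1e-07). MMP24 had 58.4, 61.6 and 62.3 CPM in sgScr and 91.3 and 86.6 CPM in sgFOS, or 0.56 (SE 0.0487, adjusted p = 1.14e-11). The overlapping MMP24-AS1 moved by a like amount, 0.51 (SE 0.0769, adjusted p = 3.06e-06), and with the strand setting unknown the reads of the pair cannot be told apart. The same limit holds for other members with a gene annotated on the opposite strand, among them ADAMTS7 (MORF4L1), PLAU (C10orf55), ADAM17 (IAH1), TIMP1 (SYN1) and MMP2 (MMP2-AS1). The other membrane-type members were not called, among them MMP14, the activator of proMMP2, at 3.94, 3.49 and 2.20 CPM in sgScr and 1.63 and 2.34 CPM in sgFOS (−0.69, SE 0.264, adjusted p = 0.0539). MMP28, the most counted of the remaining MMPs, gave 0.63 (SE 0.343, adjusted p = 0.191).

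**Figure D3:**
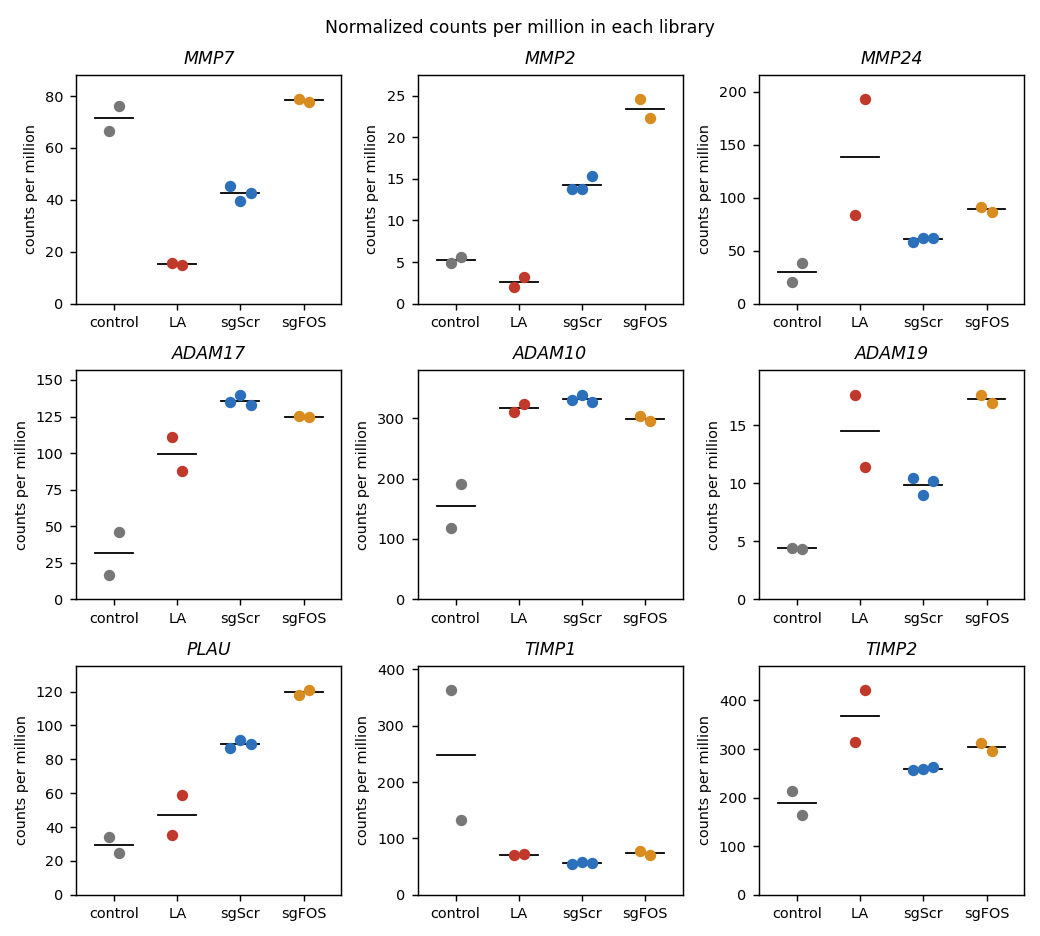
Normalized counts (CPM) of 9 members in each library, with 1 point per library and a line at the group mean, for 2 control, 2 LA, 3 sgScr and 2 sgFOS libraries. MMP7 is lowest in both LA libraries, at 15.6 and 15.0, and MMP2 and PLAU are highest in sgFOS, while 1 control library of TIMP1, at 363, and 1 LA library of MMP24, at 193, stand apart from their replicates.

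Within the ADAMs, ADAM19 had 10.4, 8.99 and 10.2 CPM in sgScr and 17.6 and 16.9 CPM in sgFOS. It was the ADAM with the largest change among those called, 0.82 (SE 0.110, adjusted p = 2.97e-07). ADAM15, an ADAM with an integrin-binding motif, had 98.6, 103.7 and 106 CPM in sgScr and 121 and 115 CPM in sgFOS (0.21, SE 0.0430, adjusted p = 2.79e-04). ADAM10 had 331, 339.6 and 327 CPM in sgScr and 304 and 296 CPM in sgFOS, and fell by 0.14 (SE 0.0353, adjusted p = 0.00362). ADAM17 had 135, 139.97 and 133 CPM in sgScr and 125 and 124 CPM in sgFOS, and fell by 0.11 (SE 0.0403, adjusted p = 0.0461). The groups did not overlap for these 4 genes, nor for ADAM11 and ADAM23, which were not called, and the share of all genes without overlap was not computed. The differences of ADAM10, ADAM15 and ADAM17 were small and were not called after the length and GC correction. ADAM9, the most counted sheddase, gave 0.04 (SE 0.0334, adjusted p = 0.434), and ADAM23 gave 0.15 (SE 0.0754, adjusted p = 0.170).

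ADAMTS7 (chr15:79051548-79103806), another protease of cartilage oligomeric matrix protein, had 10.3, 11.0 and 9.16 CPM in sgScr and 17.7 and 21.1 CPM in sgFOS. Its log2 fold change of 0.94 (SE 0.110, adjusted p = 1.71e-08) was the largest among the members called. ADAMTSL5, which lacks protease activity, had 5.33, 4.57 and 4.12 CPM in sgScr and 5.86 and 6.94 CPM in sgFOS (0.46, SE 0.170, adjusted p = 0.0462), and it was not called after the correction or without sgScr replicate 2, sgScr replicate 3 or either sgFOS replicate. ADAMTS12, whose promoter also holds the motif, was not called (0.34, SE 0.153, adjusted p = 0.104), and ADAMTS10 gave −0.07 (SE 0.0751, adjusted p = 0.566).

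The 3 tested TIMPs and the 3 genes of the plasminogen group were all called higher, beside 12.2% of all genes. TIMP1 had 55.3, 58.5 and 56.0 CPM in sgScr and 77.3 and 71.3 CPM in sgFOS, a log2 fold change of 0.40 (SE 0.0519, adjusted p = 1.34e-07). TIMP2 had 257, 259.6 and 263 CPM in sgScr and 312 and 296 CPM in sgFOS (0.24, SE 0.0357, adjusted p = 2.27e-06). TIMP4, a rarer inhibitor, had 6.82, 7.81 and 7.95 CPM in sgScr and 11.6 and 8.21 CPM in sgFOS (0.41, SE 0.144, adjusted p = 0.0329), and without sgFOS replicate 1 the value was 0.14 (adjusted p = 0.690). PLAU (chr10:75668935-75677254) had 86.6, 91.6 and 88.9 CPM in sgScr and 118 and 121 CPM in sgFOS, a log2 fold change of 0.44 (SE 0.0425, adjusted p = 2.04e-10). PLAUR (chr19:44150247-44174699), with the motif at −186, had 38.6, 39.9 and 40.0 CPM in sgScr and 45.3 and 48.9 CPM in sgFOS (0.27, SE 0.0607, adjusted p = 9.43e-04). PLAT had 3.70, 3.78 and 3.83 CPM in sgScr and 5.86 and 7.88 CPM in sgFOS (0.88, SE 0.175, adjusted p = 2.1e-04). For each of these 6 genes both sgFOS libraries lay above all 3 sgScr libraries, as they also did for MMP15, ADAM23 and ADAMTS16, which were not called. How many of all genes separate in this way was not computed.

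**Figure D4:**
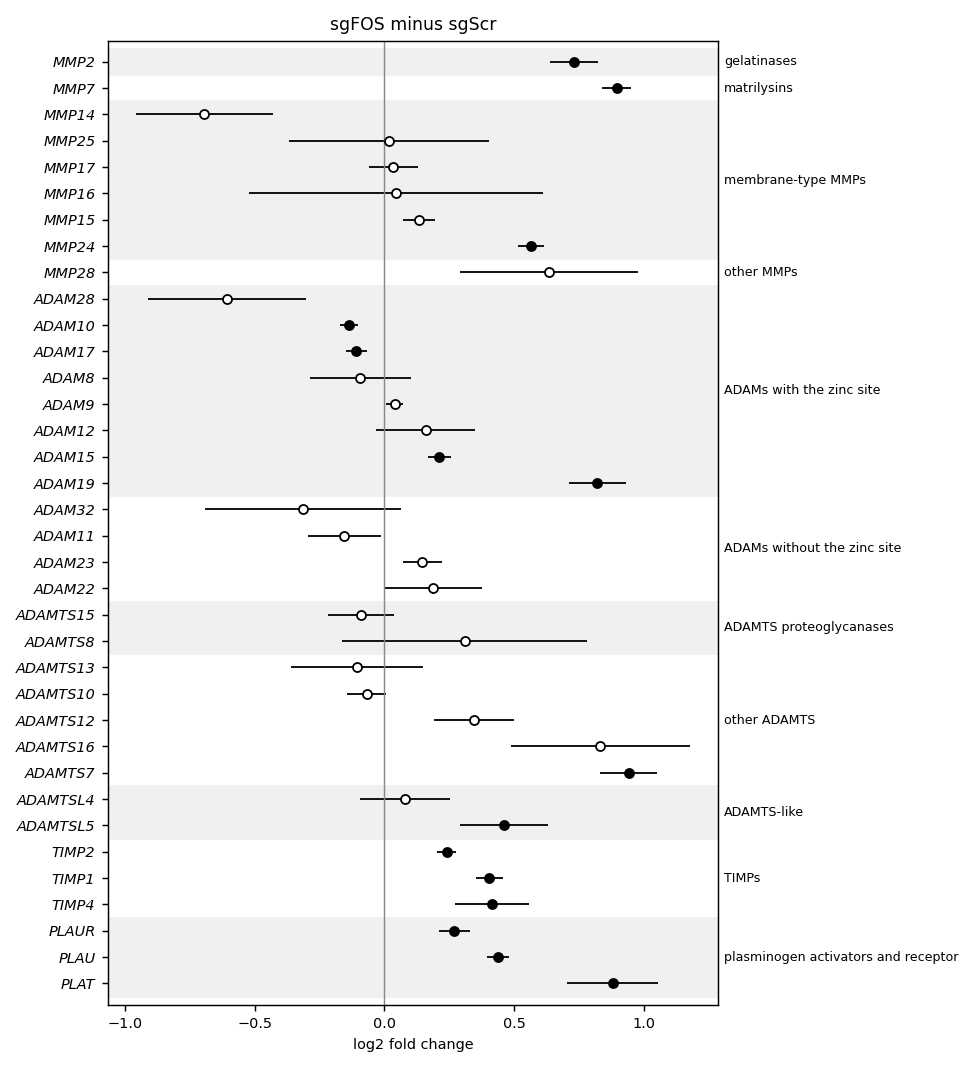
Log2 fold change of sgFOS minus sgScr for the 36 members tested, grouped by role, with bars of 1 standard error. Filled circles mark an adjusted p under 0.05 in edgeR. The TIMPs and the plasminogen group are filled and lie to the right of 0 for all 6 tested members, and ADAM10 and ADAM17 are filled to the left of 0.

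Of the 22 tested members with a promoter in the RefSeq table, the AP-1 motif was in 2 of the 10 called higher (MMP7 and PLAUR), in 0 of the 2 called lower and in 1 of the 10 not called (ADAMTS12). A match of these letters is a description of the window and not a bound site. The biological coefficient of variation was 0.0296 here, against 0.329 for LA and control, and in 1 fit over all 9 libraries edgeR called 0 members in either direction, with 5 higher and 0 lower at an unadjusted p under 0.05. Across genes the fold change rose with GC content (Spearman's rho 0.257 over 13954 genes), and the correction left 11 higher and 2 lower, with MMP14 (−0.78, adjusted p = 0.0201) and ADAMTS10 (−0.20, adjusted p = 0.0383) called lower. At the threshold of the study's methods 7 members were higher beside 3.73% of all genes and 1 was lower beside 2.03%. Leaving out 1 library left 10 to 13 members higher and 0 to 4 lower: ADAM17 was not called without sgScr replicate 1, sgScr replicate 2 or either sgFOS replicate, ADAM10, PLAT and PLAUR were not called without sgFOS replicate 2 (adjusted p = 0.0864, 0.0504 and 0.0673), and TIMP4 was not called without sgScr replicate 1, sgScr replicate 2 or sgFOS replicate 1.

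The comparison of sgScr with LA set fusion cells with a scramble guide beside fusion cells without one. It shares libraries with both comparisons above, so its values are not independent of theirs, and the guide, the passage of the cells and any batch cannot be told apart. MMP2, MMP7 and urokinase were higher in sgScr, and the 3 tested TIMPs, MMP24 and 4 ADAMTS members were lower. Of 35 members tested, 8 were called higher and 8 lower, 22.9% in each direction, beside 10.6% of all 14521 genes higher and 12.3% lower. The median log2 fold change was 0.02 over the members and −0.02 over all genes.

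MMP2 went from 2.03 and 3.20 CPM in LA to 13.7, 13.8 and 15.3 CPM in sgScr, a log2 fold change of 2.39 (SE 0.232, adjusted p = 0.00306). MMP7 went from 15.6 and 15.0 CPM to between 39.7 and 45.3 CPM, or 1.43 (SE 0.109, adjusted p = 0.00178). These genes and TIMP4 kept their call in all 14 alternative settings and omissions tried. PLAU had 35.2 and 59.0 CPM in LA and at least 86.6 CPM in sgScr (0.87, SE 0.218, adjusted p = 0.0368). MMP15, a membrane-type MMP that can activate proMMP2, had 19.8 and 24.4 CPM in LA and between 38.7 and 39.3 CPM in sgScr (0.77, SE 0.125, adjusted p = 0.0118). The proteoglycanase ADAMTS15 rose by 1.33 (SE 0.161, adjusted p = 0.00528), ADAM22, a binding partner of LGI proteins without the zinc site, by 1.21 (SE 0.280, adjusted p = 0.0301), and ADAM17 by 0.41 (SE 0.115, adjusted p = 0.0491). ADAM28, with 9 and 3 counts in LA and 26 to 57 in sgScr, was also higher (2.62, SE 0.559, adjusted p = 0.0243).

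Among the members lower in sgScr, TIMP4 had 19.9 and 20.0 CPM in LA and 6.82 to 7.95 CPM in sgScr, a log2 fold change of −1.45 (SE 0.132, adjusted p = 0.00271). TIMP2 gave −0.54 (SE 0.138, adjusted p = 0.0385) and TIMP1 −0.38 (SE 0.0810, adjusted p = 0.0249), with no overlap between the groups. MMP24 gave −1.23 (SE 0.324, adjusted p = 0.0420), and without LA replicate 2, its highest library, −0.49. MMP24 was not called without sgScr replicate 1, 2 or 3 (adjusted p = 0.137, 0.138 and 0.15). ADAMTS10 gave −1.21 (SE 0.194, adjusted p = 0.0115), ADAMTS12 −1.01 (SE 0.193, adjusted p = 0.0180) and ADAMTS13, the protease of von Willebrand factor, −1.39 (SE 0.313, adjusted p = 0.0277). The proteoglycanase ADAMTS9, with 45 and 13 counts in LA and 2 to 4 in sgScr, gave −3.47 (SE 0.711, adjusted p = 0.0220). Without LA replicate 1 it gave −2.21 and without LA replicate 2 −4.14. It was not called without sgScr replicate 1, 2 or 3 (adjusted p = 0.0957, 0.0894 and 0.107). ADAM9 (0.20), ADAM10 (0.02), ADAM15 (0.01), PLAUR (0.17) and PLAT (0.15) were not called.

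**Figure D5:**
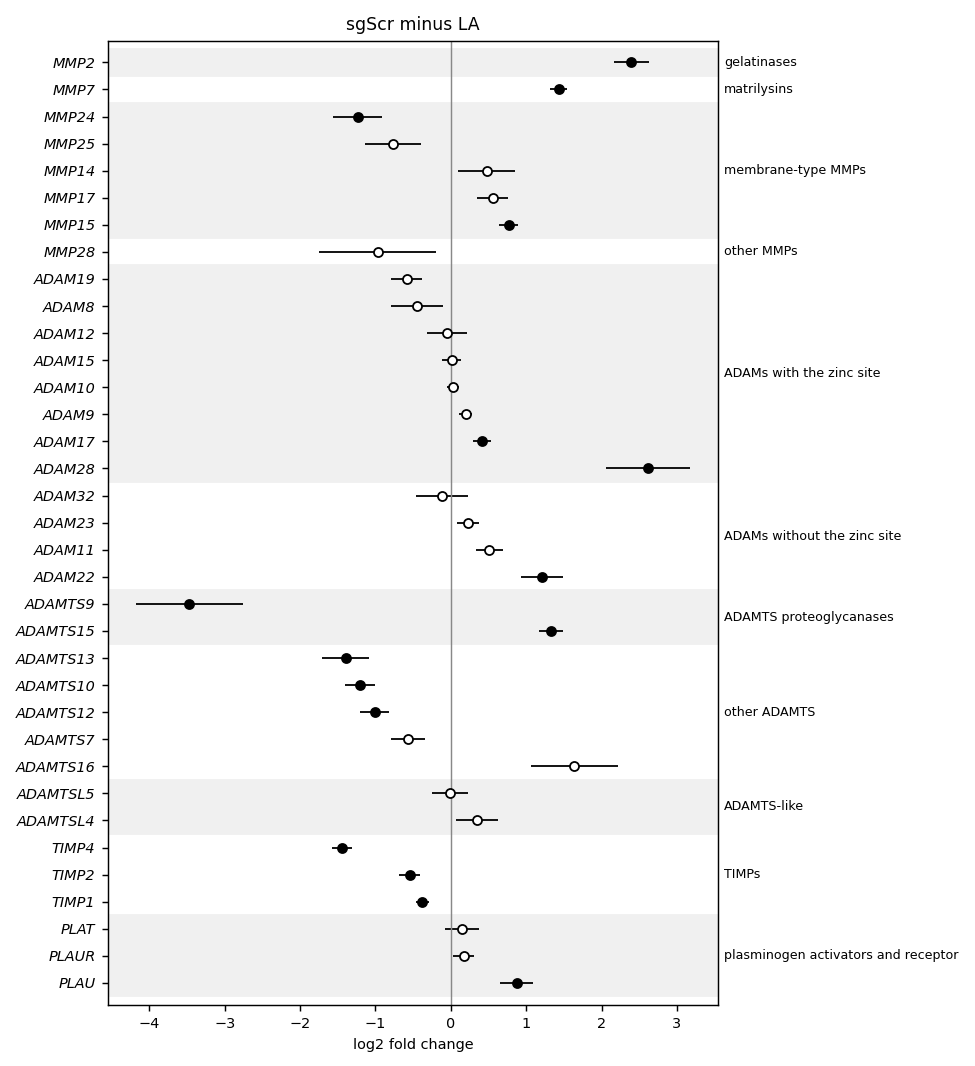
Log2 fold change of sgScr minus LA for the 35 members tested, grouped by role, with bars of 1 standard error. Filled circles mark an adjusted p under 0.05 in edgeR, 8 to the right of 0 and 8 to the left, with MMP2 at 2.39 and TIMP4 at −1.45.

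At the threshold of the study's methods, 10 members were higher in sgScr beside 10.7% of all genes and 9 were lower beside 15.2%. Leaving out any 1 of the sgScr replicates 1, 2 and 3 left 3, 3 and 2 members higher and 1 lower each time, while without LA replicate 1 there were 14 higher and 15 lower and without LA replicate 2 there were 16 and 11. In those last fits the lone LA library is assumed to vary like the sgScr libraries, and the calls over all genes grew as well, to 4938 higher and 4988 lower without LA replicate 1 and to 3748 and 3860 without LA replicate 2. Without an sgScr replicate they were 171 to 222 higher and 218 to 310 lower.

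The partners of the plasminogen system gave the context for PLAU and PLAUR. Of 13 genes listed, 10 were tested in LA against control, with 2 higher and 2 lower, beside 9.57% and 9.94% of all genes. Vitronectin (VTN), an adhesive plasma and matrix protein that the urokinase receptor binds, rose by 1.41 (SE 0.473, adjusted p = 0.0385). SERPINF2, the plasmin inhibitor, gave −1.65 (SE 0.557, adjusted p = 0.0398) and S100A10, a plasminogen receptor subunit, −1.53 (SE 0.462, adjusted p = 0.0230), and neither was called after the length and GC correction. In sgFOS against sgScr 6 of 10 were higher and 1 lower, beside 12.2% and 10.5% of all genes. VTN rose by 0.81 (SE 0.101, adjusted p = 6.52e-08), SERPINE2, an inhibitor of urokinase, by 0.72 (SE 0.0472, adjusted p = 9.48e-15), and LRP1, the receptor that takes up inhibitor complexes, by 0.53 (SE 0.0415, adjusted p = 1.27e-12). In sgScr against LA 4 of 11 were higher and 2 lower, beside 10.6% and 12.3% of all genes, with VTN at −2.42 (SE 0.391, adjusted p = 0.0116) and the collagen receptor MRC2 at 1.04 (SE 0.0884, adjusted p = 0.00223).

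Of 25 activators, carriers and inhibitors of metalloproteinases, 1 of 22 tested was higher in LA than in control and none lower, beside 9.57% and 9.94% of all genes. That gene was PCSK5, a proprotein convertase, at 2.31 (SE 0.539, adjusted p = 0.00512). In sgFOS against sgScr 11 of 23 were higher and none lower, beside the 12.2% and 10.5% of all genes given above. They included TSPAN10 at 1.32 (SE 0.269, adjusted p = 2.99e-04) and TSPAN5 at 0.61 (SE 0.136, adjusted p = 8.42e-04), tetraspanins that accompany ADAM10, and SPOCK1, a proteoglycan, at 1.11 (SE 0.206, adjusted p = 8.05e-05). In sgScr against LA 5 of 23 were higher and 3 lower, beside 10.6% and 12.3% of all genes. Among them were TSPAN15, a tetraspanin that carries ADAM10 to the cell surface, at 0.81 (SE 0.0820, adjusted p = 0.00336) and PCSK5 at −2.14 (SE 0.172, adjusted p = 0.00199).

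Of 33 membrane proteins that ADAMs are known to shed, 27 were tested in LA against control, with 5 higher and 1 lower, beside 9.57% and 9.94% of all genes. The Notch ligand JAG1 rose by 2.97 (SE 0.432, adjusted p = 1.53e-04), the EGFR ligand TGFA by 2.49 (SE 0.503, adjusted p = 0.00236), N-cadherin (CDH2) by 2.41 (SE 0.431, adjusted p = 0.00116) and E-cadherin (CDH1) by 2.28 (SE 0.411, adjusted p = 0.00123). The gene called lower was CX3CL1, a membrane-bound chemokine with a mean under 50 counts, at −2.75 (SE 0.969, adjusted p = 0.0476). The list's median was 0.74 beside 0.04 over all genes. These fold changes and medians come from the fit without the length and GC correction. In that fit the fold change rose with transcript length across genes (Spearman's rho 0.574). In sgFOS against sgScr 13 of 29 were higher and 2 lower, beside 12.2% and 10.5% of all genes, with TGFA at 0.80 (SE 0.135, adjusted p = 1.84e-05), HBEGF at 0.79 (SE 0.197, adjusted p = 0.00275), NRG1 at 0.62 (SE 0.0415, adjusted p = 1.71e-14) and CDH2 at 0.57 (SE 0.147, adjusted p = 0.00391). In sgScr against LA 4 of 28 were higher and 6 lower, beside 10.6% and 12.3% of all genes, with CDH2 at −3.63 (SE 0.158, adjusted p = 3.52e-04) and TGFA at −2.08 (SE 0.395, adjusted p = 0.0179). These are levels of the substrates' RNA, and shedding itself was not measured.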

How the data were processed

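RNA-seq was done on 9 libraries of A549 cells in 4 groups taken from the sample labels. The table the authors deposited holds raw counts for each gene name, whole numbers to which no normalization was applied. Their methods give stranded mRNA libraries and alignment to hg19, and the submitters' processing notes name STAR 2.7.10b and DESeq2 1.26.0. Which program, annotation and strand setting were used for counting is not given in the sources used here.

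Tests were run with edgeR 4.0.16 under R 4.3.3 (TMM, filterByExpr, quasi-likelihood test, two-sided, Benjamini-Hochberg adjustment over all genes tested) on the libraries of each comparison alone, and a gene was called at an adjusted p under 0.05. The script was tested on simulated data. CPM used TMM factors over all 9 libraries, and levels per kilobase used the GENCODE transcript of each gene on GRCh37. Of the gene names, 22494 matched by symbol, 1332 by older symbol, 862 by gene number and 1676 not at all. The 28 names that look like dates stayed in library sizes and tests. The length and GC correction was a loess curve per library (span 0.5) entered as an offset. Promoters were searched and plots drawn in Python 3.11.15.

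Full statistics went to members with a mean of at least 50 counts that were called in at least 1 comparison and to the most counted member of each role, and up to 4 genes were named per partner list and comparison by size of change, except 1 gene that is not reported here. ADAM28 and ADAMTS9, with lower counts, MMP14, DPP4 and CX3CL1 were named after their values were seen. The members, roles and lists (plasminogen partners, activators and inhibitors, shed substrates, other proteases, and markers of A549, fibroblasts, leukocytes and endothelium) were chosen with earlier results of these data known. Alternatives were DESeq2 1.42.0, its size factors, library size alone, no filter, a mean of at least 50 counts, all 9 libraries in a single fit, a replicate block, the correction, both together, the threshold of the study's methods, and leaving out each replicate. A crossed block was added after seeing the data.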

Additional observations from a re-analysis of the deposited data

How the results depend on the processing

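No member called in a comparison changed sign under any alternative. In LA against control, from 5 members higher and 2 lower, the length and GC correction gave 3 and 1, a single fit of all 9 libraries 11 and 5, the threshold of the study's methods 8 and 3, and the replicate block 2 and 2, or with the correction 4 and 1. Leaving out a replicate gave 0 to 5 higher and 0 to 4 lower. In sgFOS against sgScr, from 13 higher and 2 lower, DESeq2 gave 11 and 1, the single fit 0 and 0, the study's threshold 7 and 1, and the replicate block 13 and 4. Leaving out a replicate gave 10 to 13 and 0 to 4. In sgScr against LA, from 8 and 8, the single fit gave 5 and 4, and the replicate block 6 and 5, or with the correction 8 and 5. Leaving out a replicate gave 2 to 16 and 1 to 15. ADAM15, not called in sgScr against LA at 0.01, was −0.16 without LA replicate 2 (adjusted p = 0.0147), the lowest value with a replicate left out, and 0.22 without LA replicate 1 (adjusted p = 0.000912), the highest.

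Over all genes, from 1380 higher and 1434 lower in LA against control, library size alone gave 1601 and 682 and moved the median of all genes to 0.33, the single fit gave 3552 and 3247, the replicate block 791 and 728, the correction 749 and 934, and the study's threshold 2505 and 2472. In sgFOS against sgScr the 1731 and 1490 became 1075 and 887 with DESeq2, 0 and 0 in the single fit, and 530 and 288 at the study's threshold. In sgScr against LA the 1534 and 1793 became 569 and 867 in the single fit, 511 and 719 with the replicate block, and 832 and 813 with block and correction. The single fit takes 1 spread from all groups, with the wider control and LA pairs among them. The cause of the other shifts was not tested.

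Whether the replicate numbers pair the samples is not stated, and the correlations here cannot settle it. Deviations of same-numbered libraries correlated at −0.221 in LA against control, −0.124 and 0.00324 in sgFOS against sgScr, and −0.0213 and −0.00847 in sgScr against LA. The crossed pairing of LA and control gave 0.221, the mirror of −0.221 that follows from 2 libraries in each group. With the crossed pairing, LA against control had 6 members higher and 2 lower. Depth limits the 37 members under the filter, which were not tested.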

Other observations

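Other extracellular and pericellular proteases, 36 genes outside the metalloproteinase families, were followed in the same way. In LA against control 3 of 20 tested were higher and 1 lower, beside 9.57% and 9.94% of all genes. The carboxypeptidase CPA4 was higher at 2.08 on the log2 scale (SE 0.557, adjusted p = 0.0117), as was carboxypeptidase D (CPD) at 1.60 (SE 0.438, adjusted p = 0.0133) and the rarer dipeptidyl peptidase DPP4 at 2.69 (SE 0.735, adjusted p = 0.0129), and the cathepsin CTSV fell by 1.70 (SE 0.487, adjusted p = 0.0178). CPD was not called after the length and GC correction (0.69, adjusted p = 0.112).

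In sgFOS against sgScr 9 of 20 were higher and 1 lower, beside 12.2% and 10.5% of all genes. CPA4 was higher at 2.03 (SE 0.182, adjusted p = 3.07e-11), carboxypeptidase E (CPE) at 0.58 (SE 0.195, adjusted p = 0.0275), the cathepsin CTSS at 0.54 (SE 0.0797, adjusted p = 1.68e-06) and the procollagen C-proteinase BMP1 at 0.41 (SE 0.0542, adjusted p = 2.43e-07). In sgScr against LA 2 of 21 were higher and 7 lower, beside 10.6% and 12.3% of all genes. The trypsin gene PRSS3 was lower at −3.34 (SE 0.415, adjusted p = 0.00565), CPA4 at −2.59 (SE 0.439, adjusted p = 0.0131) and CPE at −1.70 (SE 0.192, adjusted p = 0.00445), and CTSV was higher at 1.76 (SE 0.146, adjusted p = 0.00211). PRSS3 has near-identical paralogs, so reads of these copies could have been split between them in the counting.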
